A study of Mus musculus with 24 samples.

Results

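The genes described here were 10 of the 770 genes on an nCounter panel, chosen by name: the dendritic cell genes Xcr1, Irf8, Cd83, Cd207 and Clec4n, the chemokines Ccl17 and Ccl22, and the chemokine receptors Ccr4, Ccr7 and Ccr8. All 10 were on the table, and 9 passed the filter on low values. Ccr4 did not pass and was described without a test. The nCounter assay counts single RNA molecules with a colour-coded probe pair per gene, so values can be compared between samples for a gene but not between genes.

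Each tumour grew from NT2.5 cells, a line cultured from a spontaneous mammary tumour, injected into the mammary fat pad of female FVB-Neu-N mice aged 7 to 8 weeks. Treatment began 3 days after implantation and ran for 3 weeks. Entinostat (ENT) blocks class I histone deacetylases and was given by mouth each day at 5 mg/kg, and antibodies to PD-1, CTLA-4 or HER2 were given into the peritoneum at 100 µg per mouse. The groups were ENT+PD1+CTLA4 (4 tumours), ENT+CTLA4+HER2 (2), ENT+CTLA4 (4), ENT+PD1 (4), ENT (4) and vehicle (4), and a further 2 samples carried the titles of ENT+PD1 tumours 1 and 2 a second time. That repeat-titled pair entered no main test and was used only in the alternative fit with cartridge as a block. Vehicle mice received methylcellulose and isotype antibodies, and no arm received an antibody to PD-1, CTLA-4 or HER2 without entinostat. All mice carried 1 transplanted line, and the labels do not say that the tumours of an arm came from separate experiments, so the p-values speak of the spread among the tumours at hand. The protocol also says that work in these mice was done with and without anti-HER2, and groups here follow the titles alone.

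XCR1 is the receptor for XCL1 and marks the conventional dendritic cells that cross-present antigen to CD8 T cells, whose development depends on the transcription factor IRF8. Maturing dendritic cells display CD83 and switch on CCR7, which leads them towards CCL19 and CCL21 in lymphatics and lymph nodes, and naive T cells use the same receptor. CCL17 and CCL22, made by dendritic cells and macrophages, attract cells with CCR4, among them regulatory T cells and type 2 helper T cells, and CCR8 is known as a receptor of regulatory T cells inside tumours.

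Whole counts recovered from the deposited values came to between 226863 and 483418 per sample. The samples ran on 2 cartridges of 12. Every arm with anti-CTLA-4 and the repeat-titled pair ran on the second, and ENT+PD1, ENT and vehicle ran on the first. Any comparison between an arm of the second and an arm of the first therefore crosses cartridges, and there treatment and cartridge cannot be told apart. In the alternative fit with cartridge as a block, only ENT+PD1, with the repeat-titled pair entered in it, lies on both cartridges. The block therefore rests on those samples alone, and it shifts every change of a gene across cartridges by the same amount. The scaled mean of the negative control probes was 5.32 ± 1.11 on the second cartridge and 9.02 ± 1.99 on the first (SD, n = 12 each). A value above that mean plus 2 SD of its own sample's controls, a limit between 8.54 and 25.3, was taken as detected. The 6 epithelial and tumour markers on the panel, among them Epcam and Erbb2, were detected in 24 of 24 tumours apart from Muc1, in 22, with summed levels of 6051 to 11041. The tumours are bulk samples, in which fewer cells of a type and less RNA per cell cannot be told apart.

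**Figure D1:**
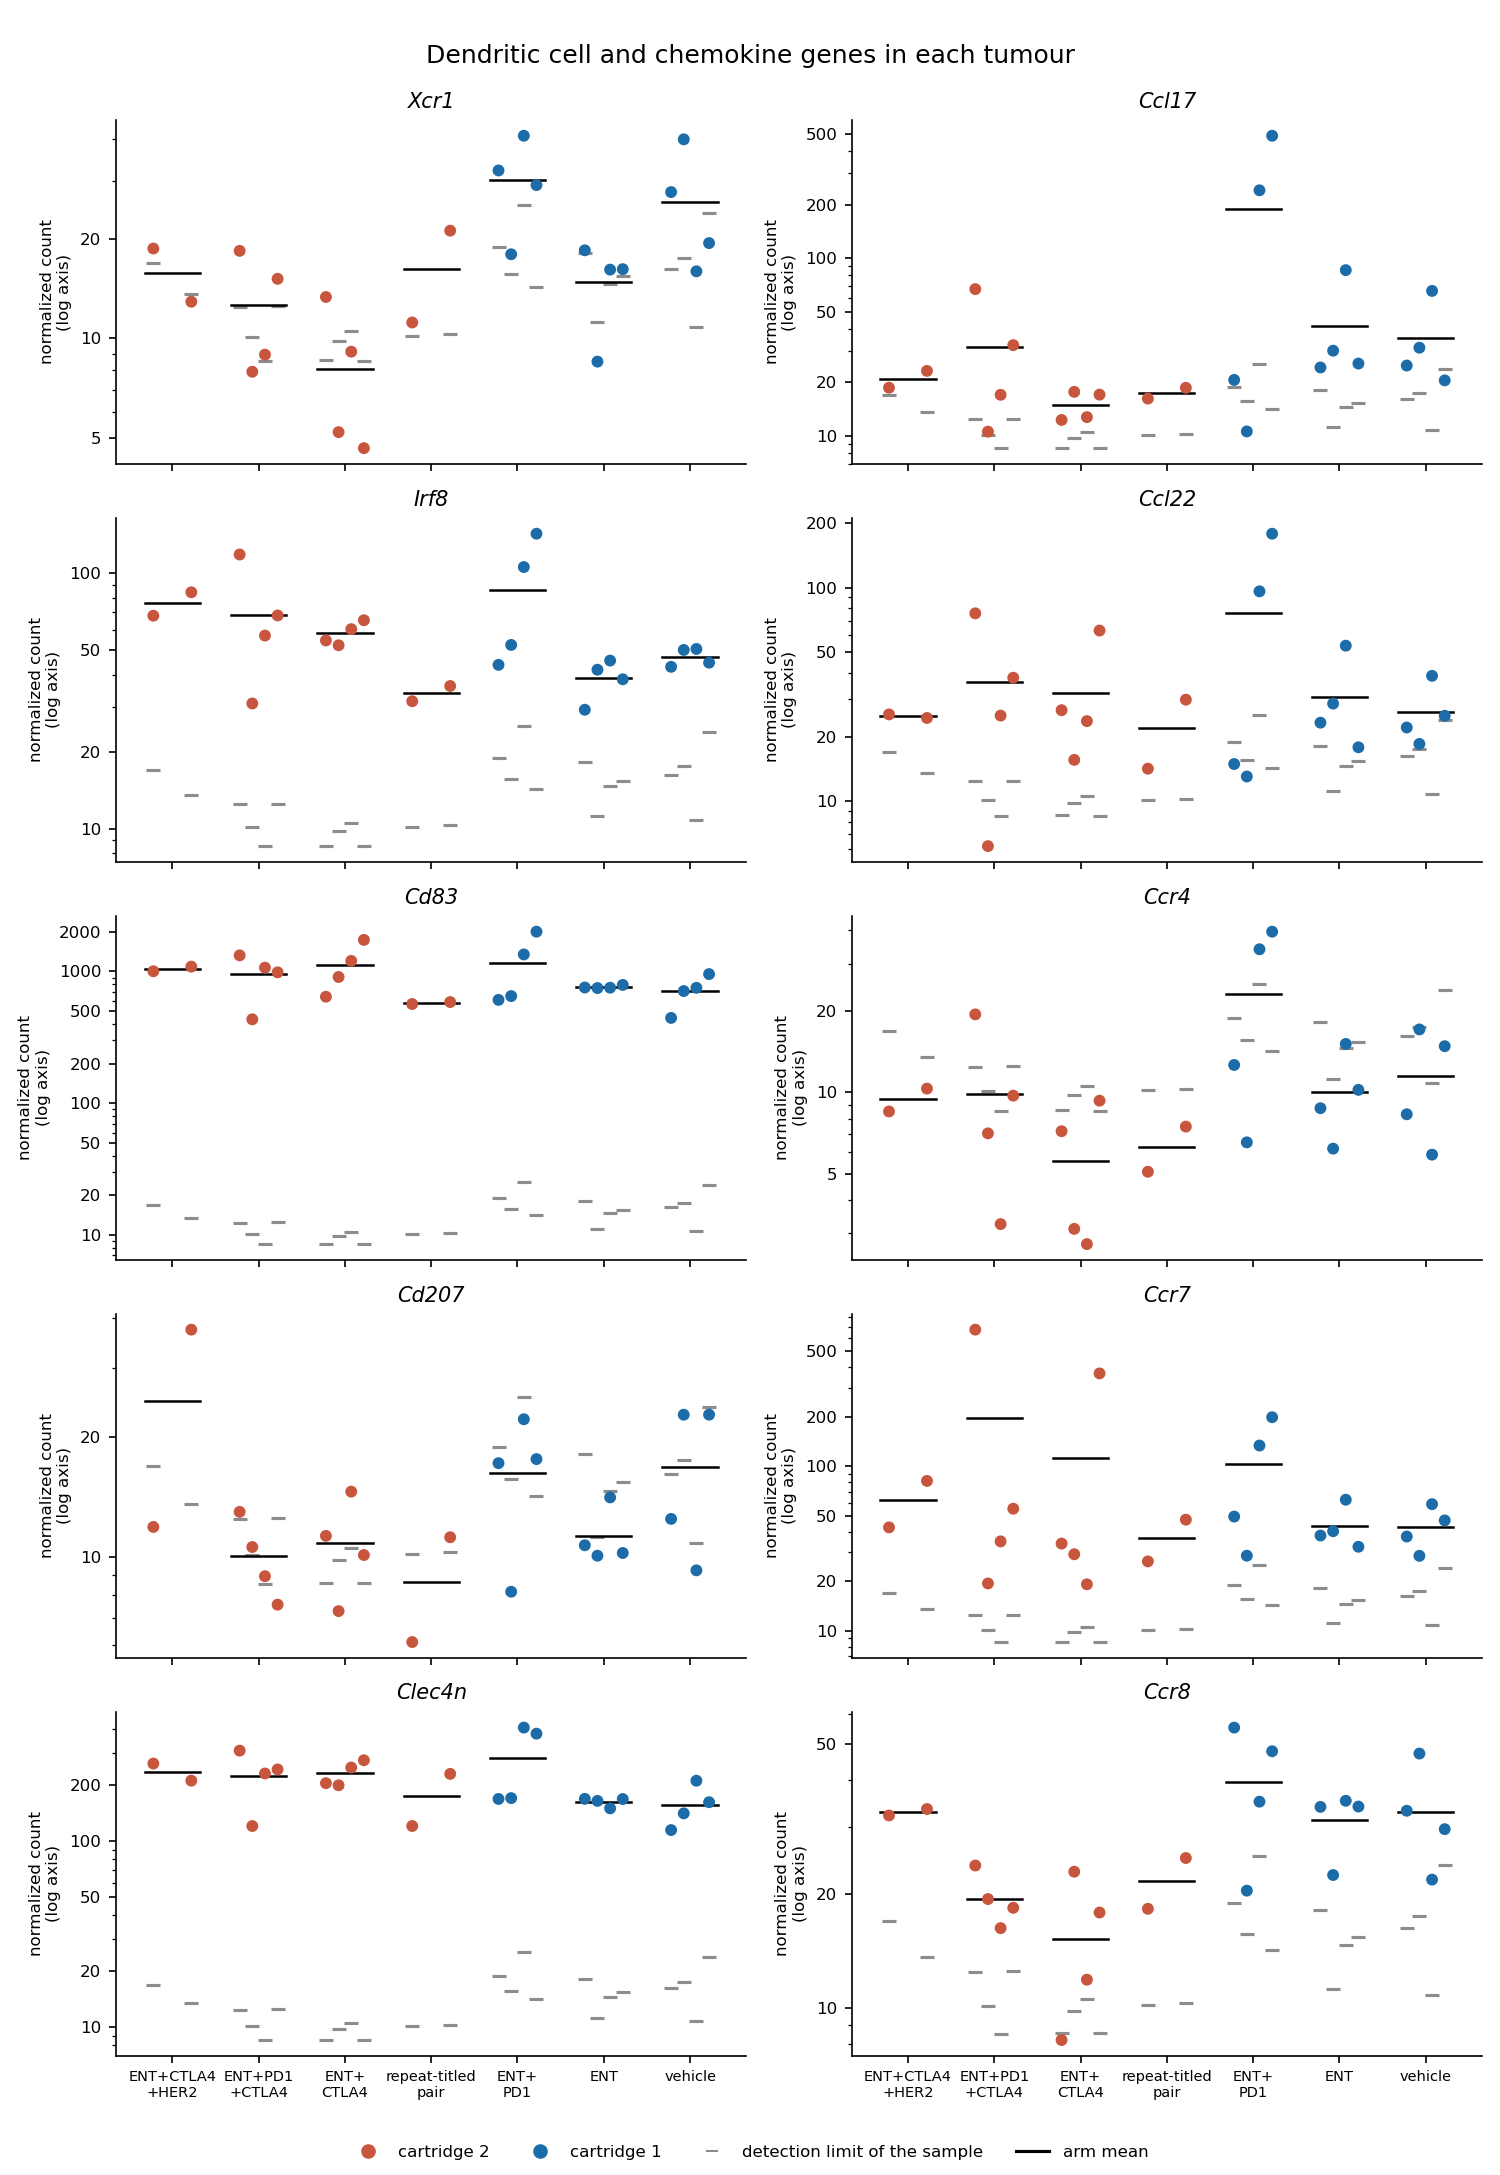
Normalized counts (log axis, a scale per panel) of the 10 genes in each of the 24 tumours by arm, with the arm mean as a black line and each sample's detection limit as a grey dash; red points ran on cartridge 2 and blue points on cartridge 1. Ccl17 spans 10.6 to 489 and Ccr7 spans 19.2 to 675, while Xcr1, Cd207 and Ccr4 lie close to the detection limits.

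Xcr1 transcript was lower in ENT+CTLA4 tumours than in vehicle tumours, the only member called in any of the 10 comparisons between arms. This comparison crosses cartridges, so treatment and cartridge cannot be told apart in it. The Xcr1 gene lies on mouse chromosome 9 (chr9:123852315-123862029, GRCm38.p6). The ENT+CTLA4 tumours had 13.3, 5.21, 9.12 and 4.66 normalized counts, against 19.4, 27.7, 39.95 and 15.95 in vehicle tumours. All 4 ENT+CTLA4 values lay under the lowest vehicle value, and the arm means were 8.08 ± 4.03 and 25.7 ± 10.7 (SD, n = 4 each). On the log2(value + 1) scale, which understates the change of weak genes, Xcr1 fell by 1.58 (SE 0.37, 95% interval -2.36 to -0.80, adjusted p = 0.0368 by limma over 621 genes). Only 1 of the 4 ENT+CTLA4 values was detected, against 3 of the 4 vehicle values, so the size of the fall is not measured well. The negative controls moved the same way, with a scaled mean of 4.69 ± 0.842 in ENT+CTLA4 and 9.36 ± 1.64 in vehicle (SD, n = 4 each), and their part in the result was not tested. With the control mean subtracted from each sample the log2 change was -2.07 with adjusted p = 0.172. With cartridge as a block, and the repeat-titled pair entered as ENT+PD1, it was -0.72 with adjusted p = 0.526. Leaving out single tumours gave log2 changes from -1.83 to -1.35, with adjusted p from 0.0182 to 0.181. The call held without ENT+CTLA4 tumour 1 or vehicle tumour 3, and was lost without ENT+CTLA4 tumour 2, 5 or 6 (adjusted p = 0.105, 0.0927 and 0.137) and without vehicle tumour 1, 2 or 5 (0.132, 0.181 and 0.0739).

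The ENT+PD1 arm had a higher mean level of Xcr1 than vehicle, and the remaining arms lay between vehicle and ENT+CTLA4. ENT+PD1 tumours had 32.2, 18.0, 41.0 and 29.1 normalized counts, all detected. ENT tumours had 18.5, 8.51, 16.1 and 16.2, of which 3 were detected. By mean level the arms ran ENT+PD1 (30.04 ± 9.50), vehicle (25.7 ± 10.7), ENT (14.8 ± 4.35), ENT+PD1+CTLA4 (12.6 ± 5.01) and ENT+CTLA4 (8.08 ± 4.03, SD, n = 4 each), with ENT+CTLA4+HER2 at 15.8 ± 4.09 (n = 2). No neighbours in that order differed past the threshold: limma gave adjusted p = 0.775 for ENT+PD1 against vehicle, 0.999 for ENT against vehicle, 0.832 for ENT+PD1+CTLA4 against ENT and 1.000 for ENT+PD1+CTLA4 against ENT+CTLA4. Negative controls averaged 10.2 ± 2.12 in ENT+PD1, 9.36 ± 1.64 in vehicle and 7.48 ± 1.42 in ENT (SD, n = 4 each). They averaged 5.14 ± 0.685 in ENT+PD1+CTLA4 and 4.69 ± 0.842 in ENT+CTLA4 (SD, n = 4 each), and 7.24 ± 0.878 in ENT+CTLA4+HER2 (n = 2). The 5 arms with 4 tumours thus stood in the same order for the controls and for Xcr1. The part of the controls in that order was not tested. ENT+PD1+CTLA4 tumours had 8.93, 15.1, 18.4 and 7.93 normalized counts, lower than in ENT+PD1 without passing the threshold (log2 change -1.21, SE 0.37, adjusted p = 0.0761). This comparison crosses cartridges. Without ENT+PD1 tumour 2 or without ENT+PD1+CTLA4 tumour 1 the change was called (adjusted p = 0.0254 and 0.0374). Over the 8 fits that each left out 1 tumour, limma adjusted p ran from 0.0254 to 0.238. Against vehicle the ENT+PD1+CTLA4 values gave a log2 change of -0.97 (SE 0.37, unadjusted p = 0.0181, adjusted p = 0.232), and -0.11 with cartridge as a block. Between ENT+PD1+CTLA4 and ENT+CTLA4, on the same cartridge, the log2 change was 0.61 (SE 0.37). ENT+CTLA4 against ENT gave -0.85 (SE 0.37, unadjusted p = 0.0341, adjusted p = 0.295), and 0.00724 with the block. Within the first cartridge Xcr1 stood higher in ENT+PD1 than in ENT by 0.97 (SE 0.37, 95% interval 0.18 to 1.75), also short of the threshold (adjusted p = 0.227). The 2 ENT+CTLA4+HER2 tumours had 18.7 and 12.9, against the 4 values of 4.66 to 13.3 in ENT+CTLA4, on the same cartridge (log2 change 0.97, SE 0.46, adjusted p = 0.258). An F test over the 5 arms with 4 tumours called Xcr1 (limma adjusted p = 0.0341), alone among the 9 members, where 3.22% of the 621 genes were called. That F test called 0 members with edgeR, median rescaling, quantile normalization, the control mean subtracted, a floor of 20, the cartridge block, the replicate block or without ENT+PD1 tumours 5 and 6, and 2 members with DESeq2. Leaving out single tumours gave 0 to 2.

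**Figure D2:**
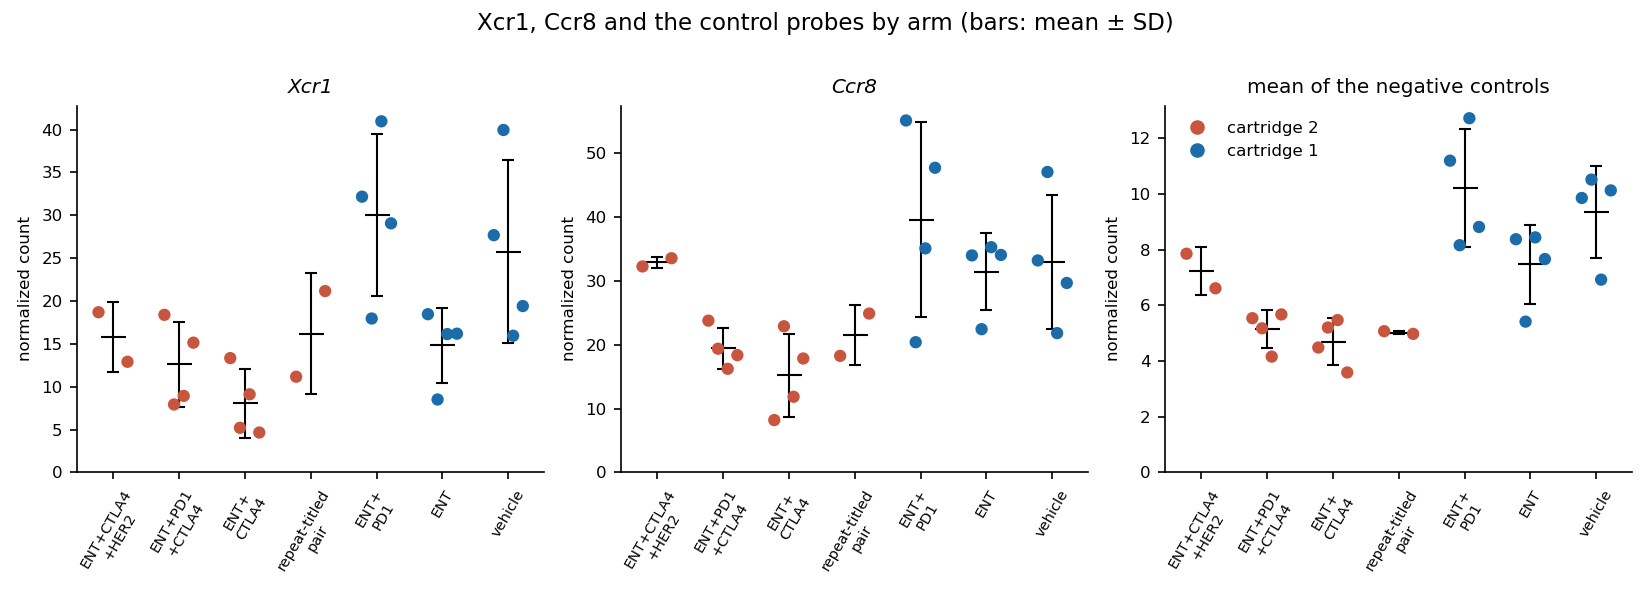
Normalized counts of Xcr1 and Ccr8 and the scaled mean of the negative controls in each tumour by arm (linear axes from 0), with the mean and SD of each arm; red is cartridge 2 and blue cartridge 1. ENT+CTLA4 has the lowest arm mean in all 3 panels, 8.08 for Xcr1, 15.2 for Ccr8 and 4.69 for the controls.

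Irf8 was detected in all 24 tumours, with its highest value in ENT+PD1 tumour 6, the next in ENT+PD1+CTLA4 tumour 1 and the third in ENT+PD1 tumour 5. It lies on chromosome 8 (chr8:120736358-120756694). ENT+PD1 tumours had 43.7, 52.3, 105 and 142 normalized counts, against 29.1, 41.8, 45.4 and 38.3 in ENT tumours and 44.5, 42.9, 49.9 and 50.4 in vehicle tumours. ENT+PD1 tumours 5 and 6 stood above every ENT and vehicle tumour, whereas tumours 1 and 2 lay near them. The log2 change of ENT+PD1 against ENT was 0.99 (SE 0.34, 95% interval 0.26 to 1.71, unadjusted p = 0.0102, adjusted p = 0.206 by limma). Without ENT+PD1 tumours 5 and 6, a choice made after seeing the data, it was 0.32. Without ENT+PD1 tumour 1 alone it was 1.25, and the gene was then called (adjusted p = 0.0475). Irf8 also stood higher in all 4 ENT+CTLA4 tumours (52.1 to 65.2) than in any vehicle tumour (42.9 to 50.4) or ENT tumour (29.1 to 45.4), with log2 changes of 0.30 and 0.58 that did not pass (adjusted p = 0.769 and 0.432). The cartridges differ in those 2 comparisons. ENT+PD1+CTLA4 tumours had 56.8, 68.1, 118 and 30.9, a range that covered every vehicle value.

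Of the remaining dendritic cell genes, Cd83 and Clec4n had strong signal and Cd207 had little. Cd83 (chr13:43785112-43803133) had 609, 651, 1347 and 2005 normalized counts in ENT+PD1 tumours, against 756, 749, 753 and 791 in ENT tumours and 956, 444, 711 and 752 in vehicle tumours. The 4 ENT tumours spread 1.06-fold from lowest to highest, at 762 ± 19.3 (SD, n = 4), and the ENT+PD1 tumours 3.29-fold. ENT+CTLA4 tumours had 643, 908, 1204 and 1738. No comparison reached an unadjusted p under 0.05 for Cd83.

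Clec4n encodes Dectin-2, a C-type lectin of macrophages and dendritic cells that binds fungal mannans (chr6:123229843-123247024). ENT+PD1 tumours had 169, 171, 408 and 379 normalized counts, against 162, 115, 141 and 212 in vehicle tumours. ENT tumours had 169, 165, 150 and 169. Again tumours 5 and 6 stood apart and tumours 1 and 2 did not. The log2 change of ENT+PD1 was 0.75 against vehicle (SE 0.29, unadjusted p = 0.0199, adjusted p = 0.470) and 0.66 against ENT (SE 0.29, adjusted p = 0.250). Without tumours 5 and 6 the same changes were 0.14 and 0.06. All 4 ENT+CTLA4 tumours, at 199.98 to 273, lay above the 4 ENT tumours, at 150.3 to 169, across cartridges (adjusted p = 0.432).

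Cd207 encodes langerin, a lectin of Langerhans cells and of some conventional dendritic cells (chr6:83671207-83677857). It was detected in 10 of the 24 tumours, with values from 6.09 to 37.4. The highest value, 37.4, was in ENT+CTLA4+HER2 tumour 2, while tumour 1 of that arm had 11.9, against 11.3, 7.29, 14.6 and 10.1 in ENT+CTLA4 tumours. The log2 change was 0.95 (SE 0.45, unadjusted p = 0.0490, adjusted p = 0.261 by limma). It was 0.16 without tumour 2 and 1.74 without tumour 1, so a single tumour decided it.

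The CCR4 ligands Ccl17 and Ccl22 stood out in 2 tumours. Ccl17 had 20.7, 10.6, 241 and 489 normalized counts in ENT+PD1 tumours 1, 2, 5 and 6, against 24.3, 30.2, 85.7 and 25.6 in ENT tumours and 20.6, 24.9, 31.4 and 65.5 in vehicle tumours. Ccl22 had 14.9, 13.1, 96.0 and 179 in the same ENT+PD1 tumours, against 23.3, 28.6, 53.5 and 17.9 in ENT and 25.1, 22.1, 18.6 and 38.6 in vehicle. Tumours 5 and 6 held the 2 highest values of both genes among all 24 samples, and tumours 1 and 2 lay below every vehicle value for Ccl22. Ccl22 was not detected in tumours 1 and 2, whose limits were 18.9 and 15.7, and Ccl17 was not detected in tumour 2. The ENT+PD1 arm mean of Ccl17 was 190.3 ± 226, so its SD exceeded its mean. The log2 change of ENT+PD1 against ENT was 1.01 for Ccl17 (95% interval -0.83 to 2.85) and 0.60 for Ccl22 (95% interval -0.97 to 2.16), neither of them called (adjusted p = 0.453 and 0.579). Without tumours 5 and 6 these changes turned to -1.21 and -0.97. ENT+CTLA4 tumours had 12.3, 17.7, 12.8 and 17.1 for Ccl17, all under the lowest vehicle value of 20.6 and the lowest ENT value of 24.3, across cartridges (log2 changes -1.07 and -1.22, adjusted p = 0.622 and 0.555). The vehicle value of 20.6 lay under its own sample's detection limit of 23.9. Negative controls averaged 4.69 ± 0.842 in ENT+CTLA4, 9.36 ± 1.64 in vehicle and 7.48 ± 1.42 in ENT (SD, n = 4 each), and their part in these gaps was not tested. On their own cartridge the 2 ENT+CTLA4+HER2 tumours had 18.7 and 23.2, both above the ENT+CTLA4 values, with a log2 change of 0.47 (adjusted p = 0.920). Ccl22 in ENT+CTLA4 tumours, at 26.7, 15.6, 23.7 and 62.9, overlapped with every other arm.

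The 2 ligand genes are neighbours on the plus strand of chromosome 8, Ccl22 at chr8:94745684-94751388 and Ccl17 at chr8:94809380-94812038, with 57991 bases between them. Because their values moved together, the 250 bases before a RefSeq start of each are shown (GRCm38.p6, plus strand, Ccl17 at chr8:94810203-94810452 before a start that lies inside the annotated gene, Ccl22 at chr8:94745434-94745683), with matches to the motifs searched in capitals.
Ccl17: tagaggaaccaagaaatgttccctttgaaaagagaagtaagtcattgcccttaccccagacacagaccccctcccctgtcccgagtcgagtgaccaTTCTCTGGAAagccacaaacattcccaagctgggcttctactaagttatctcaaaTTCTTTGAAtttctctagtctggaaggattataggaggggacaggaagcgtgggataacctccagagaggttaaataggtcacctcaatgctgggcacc
Ccl22: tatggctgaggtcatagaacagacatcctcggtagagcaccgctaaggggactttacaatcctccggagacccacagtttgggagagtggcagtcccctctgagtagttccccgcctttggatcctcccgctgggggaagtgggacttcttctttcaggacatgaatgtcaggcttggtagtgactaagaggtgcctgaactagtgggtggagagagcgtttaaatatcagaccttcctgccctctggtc
Both strands were searched for TTCNNNNGAA and TTCNNNGAA (STAT-type sites), GAAANNGAAA (IRF-type), TGANTCA (AP-1-type) and the NF-kB consensus. The Ccl17 window held TTCNNNNGAA starting 154 bases before the start, a motif found in 5.85% of 32851 mouse promoter windows, and TTCNNNGAA starting 99 bases before it, found in 7.02%. The Ccl22 window held none of these letters. Of the 10 genes, 7 had a promoter entry. In the other entries TTCNNNGAA was matched 171 and 153 bases before one start of Irf8, and TGANTCA 143 bases before that of Ccr4 and 7 bases before that of Cd207. TGANTCA is in 6.75% of the windows, GAAANNGAAA in 2.98% and the NF-kB consensus in 7.25%. The motifs found share no bases with one another, and a match describes the letters only.

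Ccr4, the receptor for both ligands, was detected in 5 of the 24 tumours (chr9:114490316-114505476). ENT+PD1 tumours had 12.6, 6.53, 33.9 and 39.4 normalized counts, of which the last 2, tumours 5 and 6, were detected. Vehicle tumours had 14.8, 8.30, 17.1 and 5.88, none of them detected. ENT+PD1+CTLA4 tumour 1 was the third highest at 19.5, and the other values of that arm were 3.25, 9.73 and 7.05. The 2 tumours that led in Ccl17 and Ccl22 thus also led in Ccr4.

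**Figure D3:**
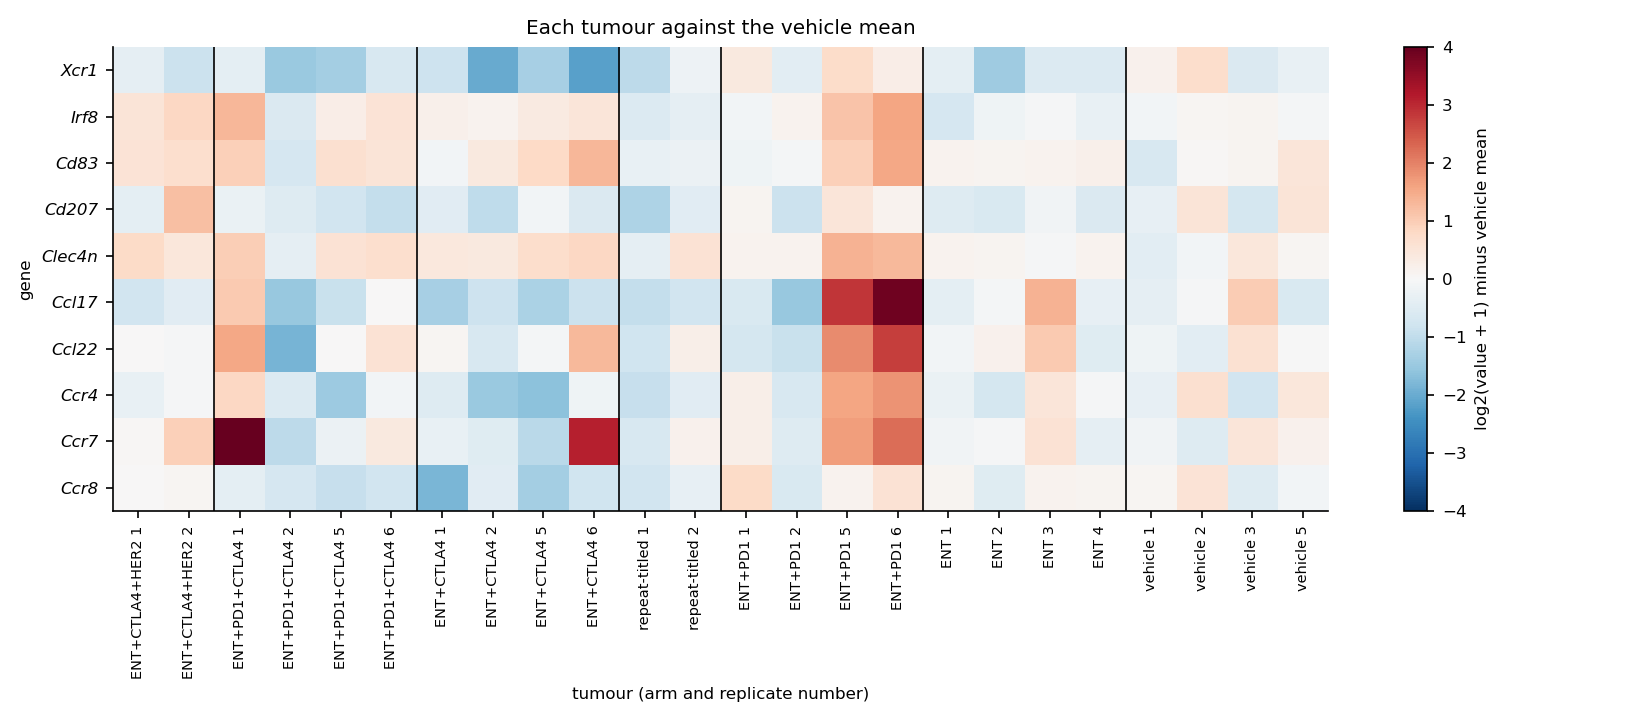
Log2(value + 1) of each gene in each tumour minus the mean of the vehicle tumours (colour scale symmetric about 0, red higher, blue lower), with arms separated by black lines. ENT+PD1 tumours 5 and 6 are red in 10 of 10 genes, and the darkest cells are Ccr7 in ENT+PD1+CTLA4 tumour 1 and Ccl17 in ENT+PD1 tumour 6.

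Ccr7 was detected in all 24 tumours, and 2 tumours from different arms exceeded all others. It lies on chromosome 11 (chr11:99144199-99155077). ENT+PD1+CTLA4 tumours 5, 6, 1 and 2 had 34.9, 55.2, 675 and 19.4 normalized counts, and ENT+CTLA4 tumours 1, 2, 5 and 6 had 33.9, 29.2, 19.2 and 366. ENT+PD1 tumours had 49.4, 28.6, 133 and 198, against 37.9, 40.3, 62.5 and 32.4 in ENT tumours and 46.8, 37.4, 28.5 and 58.8 in vehicle tumours. Apart from these 4 tumours, at 133 to 675, no sample exceeded 81.3, the value of ENT+CTLA4+HER2 tumour 2. No comparison of arms came near the threshold. The largest was ENT+PD1 against vehicle, with a log2 change of 0.91 and a 95% interval of -1.04 to 2.85 (adjusted p = 0.645).

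Lymphocyte markers moved with Ccr7, and their part in it was not tested. The 11 T cell markers on the panel, of which 8 passed the filter, averaged 2.65 log2 units above the vehicle mean in ENT+PD1+CTLA4 tumour 1 and 1.75 in ENT+CTLA4 tumour 6. Both tumours had 11 of 11 T cell markers and 7 of 9 B cell markers above the detection limit, against 4 to 6 and 1 to 2 in vehicle tumours. Their detection limits were 12.4 and 8.57, against 10.8 to 23.9 in vehicle tumours, so these counts do not rest on equal limits. Their summed T cell marker levels were 1507 and 855, against 333.8 to 422 in vehicle tumours. ENT+PD1 tumours 5 and 6 stood at 1.48 and 1.75 for the T cell markers with 8 of 11 detected in each. The 2 B cell markers that passed the filter, Ms4a1 and Blnk, averaged 1.84 and 1.499 in the 2 tumours highest in Ccr7, and 0.90 and 0.63 in ENT+PD1 tumours 5 and 6. Over all samples, Cd8a and Cd8b1 were detected in 2 tumours each, and Cd79a and Blk in none.

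**Figure D4:**
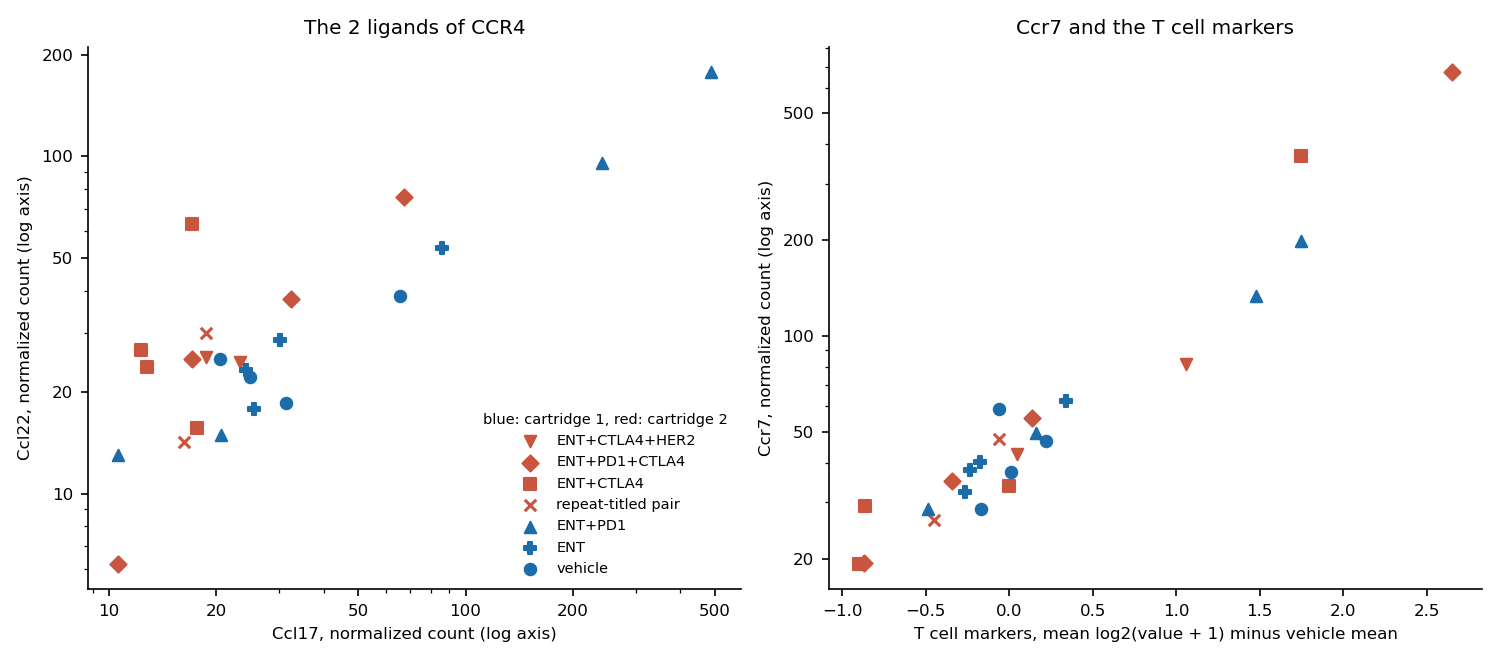
Left, Ccl22 against Ccl17 (log axes) in the 24 tumours; right, Ccr7 (log axis) against the mean of the T cell markers in log2 units above vehicle; symbols mark the arms, red cartridge 2 and blue cartridge 1. ENT+PD1 tumours 5 and 6 lie at the top right of the left panel, and ENT+PD1+CTLA4 tumour 1, at 675 and 2.65, at the top right of the right panel.

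The panel held 5 of the genes listed as ligands of these receptors, and 2 of them passed the filter. Ccl21a, a CCR7 ligand, had 68.1 normalized counts in ENT+PD1+CTLA4 tumour 1, 67.97 in ENT+CTLA4+HER2 tumour 1 and 37.3 in ENT+CTLA4 tumour 6, against 25.7 to 50.2 in vehicle tumours. Ccl8, a ligand of mouse CCR8, was high in single tumours of several arms. It had 2178 and 1620 in ENT+PD1+CTLA4 tumours 1 and 5, 1465 in ENT+CTLA4 tumour 6, and 3944 and 1262 in ENT+PD1 tumours 6 and 5, against 484 to 753 in vehicle tumours. The lowest value was 27.3, in ENT+PD1+CTLA4 tumour 2. Neither gene was called in any comparison. Ccl19, Ccl1 and Xcl1 did not pass the filter, and Xcl1, the ligand of XCR1, was highest in ENT+CTLA4+HER2 tumour 2 at 34.9 and in ENT+PD1+CTLA4 tumour 1 at 32.4.

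Ccr8 (chr9:120092133-120094906) had a median of 18.9 normalized counts on the second cartridge and 34.0 on the first, and passed the threshold in no comparison. ENT+CTLA4 tumours had 8.21, 22.9, 11.9 and 17.9 normalized counts, against 29.7, 33.2, 47.1 and 21.8 in vehicle tumours and 34.0, 22.4, 35.3 and 34.1 in ENT tumours. The highest ENT+CTLA4 value exceeded the lowest vehicle and ENT values, so the groups overlapped by 1 tumour. The log2 changes were -1.11 against vehicle (SE 0.32, 95% interval -1.77 to -0.44, adjusted p = 0.0900, and 0.0368 without vehicle tumour 3) and -1.07 against ENT (adjusted p = 0.145). ENT+PD1+CTLA4 tumours had 16.2, 18.4, 23.8 and 19.4, against 55.2, 20.4, 35.1 and 47.7 in ENT+PD1 tumours (log2 change -0.91, SE 0.32, adjusted p = 0.107, and 0.0209 without ENT+PD1 tumour 2). Against vehicle the same arm gave a log2 change of -0.69 (adjusted p = 0.330), and against ENT -0.66 (adjusted p = 0.444). With cartridge as a block the 5 changes were -0.34, -0.30, -0.14, 0.0789 and 0.114 in that order. Within the second cartridge the ENT+CTLA4+HER2 tumours had 32.3 and 33.6, both above all 4 ENT+CTLA4 tumours, with a log2 change of 1.16 (SE 0.39, 95% interval 0.34 to 1.97, unadjusted p = 0.00795, adjusted p = 0.105). Negative controls averaged 7.24 ± 0.878 (n = 2) and 4.69 ± 0.842 (n = 4) in these arms, and their part in the difference was not tested. With the control mean subtracted that log2 change was 1.42 (adjusted p = 0.184), and with quantile normalization it was 0.56 (adjusted p = 0.754). Within the first cartridge ENT+PD1, ENT and vehicle averaged 39.6 ± 15.2, 31.5 ± 6.04 and 33.0 ± 10.6 (SD, n = 4 each), and the F test over the 3 arms gave adjusted p = 0.796. The repeat-titled samples had 18.3 and 24.9, where the first-cartridge samples of the same titles had 55.2 and 20.4.

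**Figure D5:**
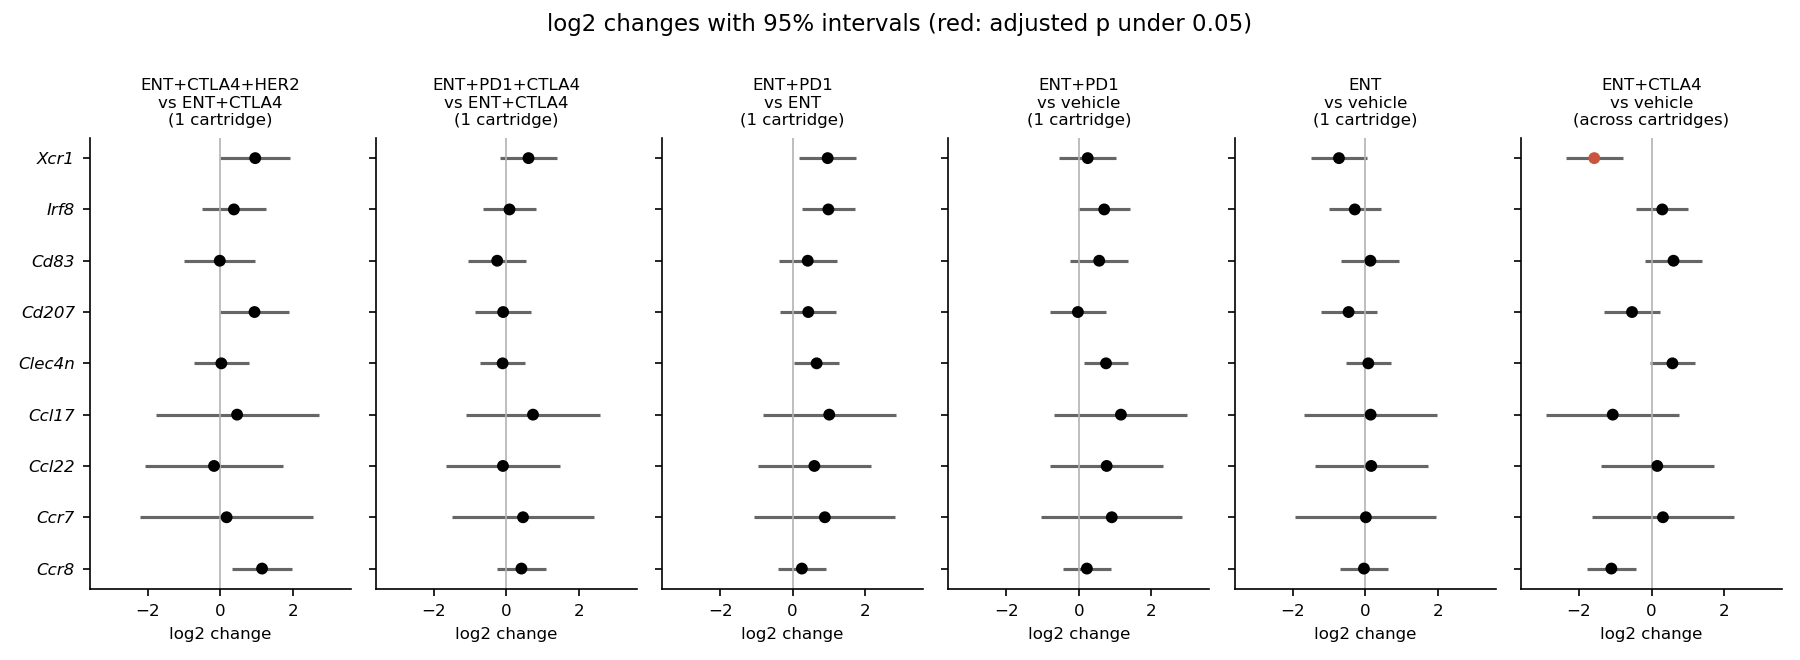
Log2 changes of the 9 tested genes with 95% intervals from the limma fit in the 5 comparisons within a cartridge and in ENT+CTLA4 against vehicle. The single red point is Xcr1 in ENT+CTLA4 against vehicle at -1.58, and the intervals of Ccl17, Ccl22 and Ccr7 cover 0 in all 6 panels.

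Counts over the members were read against the same counts over all 621 genes tested, which were called at 0% in ENT against vehicle, 0% in ENT+PD1 against vehicle, 1.45% in ENT+CTLA4 against vehicle, 2.09% in ENT+PD1+CTLA4 against vehicle, 0.322% in ENT+PD1 against ENT, 0% in ENT+CTLA4 against ENT, 0% in ENT+PD1+CTLA4 against ENT, 3.22% in ENT+PD1+CTLA4 against ENT+PD1, 0% in ENT+PD1+CTLA4 against ENT+CTLA4, 2.25% in ENT+CTLA4+HER2 against ENT+CTLA4, and 0% in the interaction of the 2 checkpoint antibodies. With limma, 1 of the 9 members was called in ENT+CTLA4 against vehicle and 0 in each other comparison. EdgeR and DESeq2 gave the same counts of 1 and 0, and both called Xcr1. At an unadjusted p under 0.05 there were 0 members in ENT against vehicle (4.67% of all genes), 1 in ENT+PD1 against vehicle (9.66%), 2 in ENT+CTLA4 against vehicle (16.6%) and 2 in ENT+PD1+CTLA4 against vehicle (14.2%). There were 3 in ENT+PD1 against ENT (19.3%), 2 in ENT+CTLA4 against ENT (15.1%) and 0 in ENT+PD1+CTLA4 against ENT (11.3%). The counts were 2 in ENT+PD1+CTLA4 against ENT+PD1 (17.7%), 0 in ENT+PD1+CTLA4 against ENT+CTLA4 (1.61%), 3 in ENT+CTLA4+HER2 against ENT+CTLA4 (18.8%) and 0 in the interaction (6.76%). All of these counts lay within 2 members of the same share of 9, so they are no result about the members. The F test within the first cartridge called 0% of genes and 0 members, with 3 members, Irf8, Clec4n and Xcr1, and 11.9% of all genes at an unadjusted p under 0.05.

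The groups of a comparison did not overlap for 3 members in ENT+CTLA4 against vehicle (Irf8 higher, Xcr1 and Ccl17 lower), where 12.7% of all genes tested did not overlap in either direction. The same held for 3 members in ENT+CTLA4 against ENT (Irf8 and Clec4n higher, Ccl17 lower), beside 18.4% of all genes, and for 3 in ENT+CTLA4+HER2 against ENT+CTLA4 (Irf8, Ccl17 and Ccr8 higher), beside 28.8%. For Ccl17 the lowest vehicle value was itself not detected. In the remaining comparisons no member was free of overlap, where the share of all genes was 6.44% for ENT and 2.58% for ENT+PD1 against vehicle, 8.53% for ENT+PD1+CTLA4 against vehicle, 7.09% for ENT+PD1 against ENT, 9.82% for ENT+PD1+CTLA4 against ENT, 8.21% for ENT+PD1+CTLA4 against ENT+PD1 and 1.45% for ENT+PD1+CTLA4 against ENT+CTLA4.

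In ENT+PD1 against ENT all 9 tested members had a higher fitted level, with a median log2 change of 0.66, while 81.3% of all genes were higher, with a median of 0.34. When samples were rescaled to a common median, the median of all genes in that comparison was -0.02, and 8 of the 9 members were higher with a median of 0.30. With quantile normalization 7 of 9 were. Without ENT+PD1 tumours 5 and 6, 5 of the 9 members were higher and their median was 0.06. In ENT+PD1 against vehicle 8 of 9 members were higher with a median of 0.70, beside 70.5% of all genes and a median of 0.18, and without the 2 tumours 3 of 9 were higher with a median of -0.13. In ENT+PD1+CTLA4 against ENT+PD1 none of the 9 was higher, with a median of -0.60, beside 19.5% of all genes and a median of -0.25, and without the 2 tumours 6 of 9 were higher with a median of 0.36. With median rescaling the counts were 8 of 9 against vehicle and 1 of 9 against ENT+PD1, and with quantile normalization 6 and 2. These comparisons share the ENT+PD1 samples. ENT alone against vehicle gave 5 of 9 members higher and a median of 0.02, beside 26.2% of all genes and a median of -0.11. The member with the lowest unadjusted p there was Xcr1, with a log2 change of -0.72 (95% interval -1.51 to 0.06, adjusted p = 0.999). The change with PD1 beside CTLA4 minus that without it, each measured within a cartridge, was called for no member. Its lowest unadjusted p was for Irf8, at -0.90 on the log2 scale (SE 0.49, unadjusted p = 0.0810, adjusted p = 0.595).

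ENT+PD1 tumour 6 held the highest value of 5 of the 10 genes, and tumour 5 that of 2. The same counts over all genes were not computed, so the counts of 5 and 2 are no result about the members. These 2 tumours also had the most panel genes at 20 or more of all 24 samples, 623 in tumour 6 and 615 in tumour 5. Several immune cell lists were high in the same 2 tumours, though not all. The summed epithelial and tumour markers were lowest there of all 24 samples, at 7004 in tumour 5 and 6051 in tumour 6. In vehicle tumours they were 8758 to 10154. By the mean of their log2 differences from vehicle these markers stood at -0.25 and -0.19, no lower than the -0.26 of ENT+PD1+CTLA4 tumour 1. The part of these lists in the members' values was not tested. Against the vehicle mean in log2 units, tumours 5 and 6 had MHC class II genes at 1.81 and 1.99, macrophage and monocyte markers at 1.02 and 1.52, NK cell markers at 1.06 and 1.12, and 13 further dendritic cell genes at 1.30 and 1.59. ENT+PD1 tumours 1 and 2 had -0.12 and -0.18 for these dendritic cell genes and -0.16 and -0.02 for the macrophage markers. Neutrophil markers reached at most 0.63 in ENT+PD1, against 1.03 and 2.76 in the 2 ENT+CTLA4+HER2 tumours. The B cell markers stood at 0.66 in ENT+PD1 tumour 1, beside 0.90 and 0.63 in tumours 5 and 6. Of the 17 further dendritic cell genes on the panel, 13 passed the filter and 0 were called in any comparison. In ENT+PD1 against ENT 12 of the 13 were higher with a median log2 change of 0.84, beside 81.3% of all genes. The lowest unadjusted p there was that of Itgax, the integrin CD11c, at 1.15 (SE 0.36, limma adjusted p = 0.206). In ENT+CTLA4 against vehicle 8 of the 13 were higher with a median of 0.10, beside 43% of all genes. Lamp3, a gene of mature dendritic cells, was detected in 0 of 24 tumours, and Flt3 in 7. Of the NK cell markers, Klrk1 was called higher in ENT+PD1 than in ENT (log2 change 1.58, SE 0.33, limma adjusted p = 0.0400). Klra6 was called lower in ENT+CTLA4 than in vehicle, across cartridges (-1.97, SE 0.38, limma adjusted p = 0.0126). They were detected in 13 and 10 of 24 tumours. Of the epithelial and tumour markers, Itgb4 was called lower in ENT+CTLA4+HER2 than in ENT+CTLA4 (-0.996, SE 0.26, limma adjusted p = 0.0472).

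Among other lists near the receptors, 10 chemokine receptors passed the filter and 0 were called. All 10 were higher in ENT+PD1 than in ENT, with a median of 0.72. Of 7 regulatory T cell genes tested, 1 was called: Tigit, an inhibitory receptor, was lower in ENT+PD1+CTLA4 than in ENT+PD1 (log2 change -1.36, SE 0.37, limma adjusted p = 0.0488), with arm means of 14.3 ± 6.68 and 39.2 ± 16.1 (SD, n = 4 each). That comparison crosses cartridges. Foxp3, the defining factor of regulatory T cells, did not pass the filter and was detected in 5 of 24 tumours. It had 41.5 normalized counts in ENT+PD1 tumour 6 and 21.6 in ENT+PD1+CTLA4 tumour 1, both detected. In ENT+PD1 tumour 5 it had 22.2, under that sample's limit of 25.3. Vehicle tumours had 1.43 to 12.6, and the highest of these was detected. Of 6 type 2 lymphocyte genes tested, Ptgdr2 was called lower in ENT+CTLA4 against vehicle (log2 change -1.40, SE 0.32, limma adjusted p = 0.0368) and 5 were not called. This comparison crosses cartridges too. Ptgdr2 had a median of 13.3 normalized counts and was detected in 13 of 24 tumours.

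Values of the members were related to one another over the 22 tumours outside the repeat-titled pair, in 45 pairs of genes with permutation tests. In 22 pairs both Pearson's r and Spearman's rho passed an adjusted p of 0.05. The same share over all pairs of genes tested was not computed, so this count is no result about the members. The permutations ran across arms and cartridges, so a relation can also reflect differences between these. Cd83 with Clec4n had r = 0.88 and rho = 0.84 (adjusted permutation p = 0.000225 and 0.0003), and r was 0.86 without the 2 tumours farthest from the median, 0.89 within the first cartridge and 0.88 within the second. Irf8 with Clec4n had r = 0.86 and rho = 0.87 (adjusted permutation p = 0.000225 and 0.0003), with r = 0.82 without the 2 farthest and 0.86 and 0.85 within the cartridges. Ccl17 with Ccl22 had r = 0.84 and rho = 0.61 (adjusted permutation p = 0.000225 and 0.00973), and r was 0.66 without ENT+PD1 tumours 5 and 6, which were the 2 farthest, and 0.98 and 0.69 within the first and second cartridge. Ccl22 with Ccr7 had r = 0.79 and rho = 0.79 (adjusted permutation p = 0.000225 and 0.0003), with 0.95 and 0.83 within the cartridges.

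Relations of Xcr1 passed for both measures with Ccr4, Ccr8, Cd207 and Ccl17 and for neither with Irf8, Cd83, Clec4n, Ccl22 and Ccr7. Xcr1 with Ccr8 had r = 0.66 and rho = 0.73 (adjusted permutation p = 0.00308 and 0.00162), but r was 0.71 within the first cartridge and 0.20 within the second, so the relation did not hold within both. Within the first and second cartridge r was 0.32 and 0.52 for Xcr1 with Ccl17, and 0.71 and 0.30 for Xcr1 with Cd207. Xcr1 with Irf8 had r = 0.22 (adjusted permutation p = 0.437), with Cd83 -0.09 (0.747) and with Clec4n 0.05 (0.837). Xcr1 with Ccr4 had r = 0.71 and rho = 0.67 (adjusted permutation p = 0.00122 and 0.00484), with 0.67 and 0.55 within the cartridges, and both genes lay near the level of the control probes, which also differed between cartridges.

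The genes most like each member were taken by Pearson's r of log2 values over all 24 samples, a description in which the samples share arms and cartridges. Xcr1 was closest to Cd244, Cd160 and Mill2 (r = 0.88, 0.82 and 0.81), the first 2 of them receptors of NK cells and T cells. Irf8 was closest to Ctss, H2-Dma and Lcp1 (0.91, 0.90 and 0.90), and Cd83 to the complement genes C1qa and C1qb and to Apoe (0.92, 0.91 and 0.90). Clec4n was closest to Itgb2, Ncf4 and Cxcr4 (0.95, 0.95 and 0.93), and Cd207 to Mill2, Fcer1a and Nod1 (0.78, 0.73 and 0.72). Ccl17 was closest to CD209e, Ccl24 and Serpinb2 (0.95, 0.94 and 0.87), and Ccl22 to Cfp, H2-DMb2 and Il1rl1 (0.92, 0.89 and 0.89). Ccr7 was closest to the T cell genes Cd6 and Lck and to H2-DMb2 (0.94, 0.94 and 0.93). Ccr8 was closest to Tigit, Usp18 and Klra5 (0.88, 0.85 and 0.82). With arm means removed the same values were 0.94, 0.93 and 0.86 for Ccl17, 0.96, 0.96 and 0.94 for Ccr7, 0.82, 0.64 and 0.72 for Xcr1, and 0.75, 0.65 and 0.60 for Ccr8.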

How the data were processed

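RNA of whole mammary tumours was counted on an nCounter panel. The authors deposited 1 table of normalized signal per gene, and the submitters' processing notes name limma alone, with no version. How values were normalized is not given in the sources used here. They were read as signal on a linear scale, since the housekeeping geometric mean was 346.9 in every sample, and dividing each sample by 1 factor returned whole counts for 100% of the deposited values above 1 (tolerance 0.05). A further 82 values were exactly 1 and were set to a count of 1. Cartridges were read from the file headers. The label protocol names a myeloid panel and the series title an immune panel, and the protocol ends on isolation of immune cells while the source is whole tumour.

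A gene was tested where 4 or more samples had a value of 20 or more, which kept 621 of 770. One limma fit (version 3.58.1, lmFit, eBayes with trend, log2(value + 1)) over 22 samples in 6 groups gave 10 comparisons, an interaction and the F tests, adjusted by Benjamini-Hochberg over all genes tested and called under 0.05. edgeR 4.0.16 and DESeq2 1.42.0 on the recovered counts, other scalings, a floor, subtraction of the control mean, blocks and left-out samples were alternatives. The pipeline was tested on simulated data. Replicate numbers did not pair samples: over 40 same-numbered pairs the median correlation was -0.033. The depth per sample was 226863 to 483418 counts. The members, gene lists and rules were chosen with earlier results of these data known. All 10 members are named. Log2 changes are given for members called, for those with an unadjusted p under 0.05 and for the lowest p of a comparison, and further ones are given beside values that stand apart, chosen after those values were seen. Of the lists, genes called in a comparison are named, and for some lists the gene with the lowest p. Genes given by detection or level only were chosen after their values were seen. All 10 members matched RefSeq genes of GRCm38.p6 by accession, the source of coordinates and promoters.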

Additional observations from a re-analysis of the deposited data

Results flagged for a closer look

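Of 50 sets of 4 tumours (10 genes in 5 arms), 2 held a tumour whose gap to its nearest neighbour exceeded Dixon's 95% critical value for 4 samples, where chance gives about 1 in 20. Ccl17 in ENT tumour 3 was the highest of its arm at 85.72 normalized counts, against 24.3 to 30.2 in the other ENT tumours, with a gap over range of 0.83. Ccr8 in ENT tumour 2 was the lowest of its arm at 22.45 normalized counts, against 34.0 to 35.3 in the other ENT tumours, with a gap over range of 0.917.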

How the results depend on the processing

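Of 282 counts of members called under another setting, 241 stayed within 1.5 times the reported count, 31 were lower and 10 higher. Of 382 log2 changes of single members, 360 kept direction and side of the threshold, 13 lost and 6 gained a call, and 3 reversed, all with cartridge as a block: Ccr8 in ENT+PD1+CTLA4 at 0.0789 against vehicle and 0.114 against ENT, and Xcr1 in ENT+CTLA4 against ENT at 0.00724. The block rests on ENT+PD1 and the repeat-titled pair alone and shifts all changes of a gene across cartridges by the same amount. Whether that shift measures the cartridge was not tested. In ENT+CTLA4 against vehicle the count of 1 became 0 with quantile normalization, negative controls subtracted, a floor of 20, the compared groups alone, the cartridge block, and without the 2 tumours highest in Ccr7, a setting added after seeing the data. It became 0 with the replicate block too, as did the F test across 5 arms, and the block moved no other count. Leaving out single tumours gave 0 to 2. The F test across 5 arms, with 1 called, gave 0 with median rescaling, quantile normalization, controls subtracted, the floor, edgeR, the cartridge block and without ENT+PD1 tumours 5 and 6 (added after seeing the data), 2 with DESeq2, and 0 to 2 without single tumours. ENT+CTLA4 against ENT gave 1 with the compared groups alone. ENT+PD1 against ENT gave 0 to 1 without single tumours. ENT+PD1+CTLA4 against ENT+PD1 gave 0 to 2 without single tumours and 1 without the 2 tumours highest in Ccr7. Xcr1, Cd207 and Ccr4 lay near the control probes, which limits the size of their changes. Intervals cover the spread between 4 or fewer tumours.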

Other observations

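The repeat-titled pair differed from the first-cartridge samples of the same titles in most members. Repeat-titled sample 1 had 11.2 normalized counts of Xcr1 against 32.2 in ENT+PD1 tumour 1, a log2 difference of -1.45, and 18.3 of Ccr8 against 55.2, a log2 difference of -1.54. Repeat-titled sample 2 had 29.9 of Ccl22 against 13.1 in ENT+PD1 tumour 2, a log2 difference of 1.14, and 586 of Cd83 against 651, a log2 difference of -0.15. Over all genes tested, the profile of repeat-titled sample 1 was closest to ENT+PD1 tumour 2 (r = 0.980) and that of sample 2 to ENT+PD1+CTLA4 tumour 2 (r = 0.977), as a description with no test.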
